A study of Mus musculus with 2 samples.

Results

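Lipid-associated macrophages (MØs) of obese and calorically restricted visceral adipose tissue (VAT) are described here from the transcripts of single cells. They were taken as the cells in which Gpnmb, Mmp12 and Atp6v0d2 together held at least 0.08% of all RNA molecules counted. The cells also had to hold at least 1 molecule of Csf1r, the gene of the MØ growth factor receptor. They were left out where they held more than 2 molecules of the cell cycle genes Top2a, Mki67, Birc5, Cdk1 and Ube2c, more than 2 of the resident MØ genes Lyve1, Cbr2 and Fcna, or at least 0.2% from the Fc receptor gene Fcgr4. Of 8417 cells kept from the 2 libraries, 461 met this rule, 60 of 3015 in the CR library and 401 of 5402 in the obese library. The members were chosen by measured expression, so the levels of the genes of the rule are a description of the choice and no finding.

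Lipid-associated MØs are found in obese fat around dying adipocytes, where they take up lipid and digest it in lysosomes. They are known for Trem2, a surface receptor that senses lipids and cell debris, and for Lpl, the lipoprotein lipase that frees fatty acids from triglycerides. Of the genes of the rule, Gpnmb encodes a glycoprotein of lysosomes and the cell surface, Mmp12 the MØ elastase, which cuts extracellular matrix, and Atp6v0d2 a subunit of the proton pump (V-ATPase) that acidifies lysosomes and is abundant in osteoclasts.

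Leukocytes were sorted as viable CD45+ cells from digested perigonadal VAT and profiled by droplet sequencing of transcript 3′ ends, with 1 library from CR mice and 1 from obese mice. All animals were male C57BL/6J mice. From 8 weeks of age, and for 24 weeks, both groups were fed a diet rich in fat (60% of kcal) with 0.3% cholesterol added, while LDL receptor antisense oligonucleotide was injected each week at 5 mg/kg. CR mice were then held for 2 weeks at 70% of what they had eaten of it ad libitum, whereas the obese mice were not restricted. For CR, one diet label speaks of life-long restriction instead, and the grouping rests on the sample's title. The number of mice behind a library is not given in the sources used here, and lean VAT was not analysed here. Since there is 1 library per condition, no difference between CR and obese VAT has a replicate check, no p-value is given, and all 95% intervals cover counting error only. The mouse, the preparation and the diet cannot be told apart.

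Each molecule is counted once by its unique molecular identifier (UMI). The CR library held 19696476 UMIs in 3562 barcodes and the obese library 42948242 UMIs in 5795 barcodes. Barcodes were kept with at least 200 genes and at most 6% mitochondrial UMIs, and the mitochondrial limit removed 14.9% of CR and 5.69% of obese barcodes. The libraries shared 28 barcodes, of which 1 belonged to a lipid-associated MØ, in the obese library. CR lipid-associated MØs carried more transcripts of connective tissue and vessels. In them, 8 fibroblast genes summed to 188 CPM (UMIs per 1e6 of the summed UMIs) in CR against 19.1 CPM in obese VAT, and 6 endothelial genes to 59.6 against 7.25 CPM. The fibroblast genes differed less in C1q MØs (236 against 137 CPM) and hardly in T cells (533 against 531 CPM). The endothelial genes stood at 90.9 against 8.72 CPM in C1q MØs and 144 against 8.69 CPM in T cells. At least 2 UMIs of other lineages were present in 33 of 60 CR (55.0%) and 52 of 401 obese (12.97%) lipid-associated MØs, and in 51.4% and 17.5% of other C1q-expressing MØs. More than 25000 UMIs were held by 2 CR and 17 obese lipid-associated MØs. Haemoglobin and other erythroid genes went the other way, at 283 CPM in CR and 1902 CPM in obese lipid-associated MØs.

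With the mitochondrial limit, lipid-associated MØs held a smaller share of all kept cells in CR than in obese VAT. Their share of the Csf1r-positive cells that met every other part of the rule was also smaller. They made up 1.99% of the kept cells in CR (95% interval 1.52 to 2.55) and 7.42% in obese VAT (6.74 to 8.15). Smaller shares in CR were also held by other MØs. C1q MØs (defined below) made up 7.36% in CR and 25.7% in obese VAT, resident MØs 1.86% and 6.28%, and cycling MØs 1.66% and 5.63%. Fcgr4-high MØs went the other way, at 8.92% in CR and 2.24% in obese VAT. Of the Csf1r-positive cells that met every other part of the rule, lipid-associated MØs were 60 of 575 in CR (10.4%, 8.06 to 13.2) and 401 of 2439 in obese VAT (16.4%, 14.99 to 17.97). This denominator leaves out resident, cycling and Fcgr4-high MØs. C1q MØs were 222 (38.6%) of it in CR and 1389 (56.9%) in obese VAT. Set beside C1q MØs alone, lipid-associated MØs thus numbered 60 to 222 in CR and 401 to 1389 in obese VAT. The paper excluded clusters of non-haematopoietic origin without CD45 expression, which made up a larger share of its CR than of its obese cells. No such clusters were removed from the kept cells here. Over kept cells with at least 1 UMI of Ptprc, which encodes CD45, the shares of lipid-associated MØs were 2.13% and 7.55%. The mitochondrial limit bore unequally on the libraries. Of the cells that met the rest of the rule, 134 of 194 (69.1%, 62.1 to 75.5) lay above 6% in CR and 109 of 510 (21.4%, 17.9 to 25.2) in obese VAT, against 64 of 286 (22.4%) and 72 of 1461 (4.93%) of C1q MØs. Without a limit, the share of all barcodes with 200 genes was 5.48% (4.75 to 6.28) in CR and 8.90% (8.18 to 9.67) in obese VAT. Among the Csf1r-positive cells that met the other parts, the order then turned, with 24.5% in CR and 19.2% in obese VAT. The part of cell damage in these shares was not tested.

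**Figure D1:**
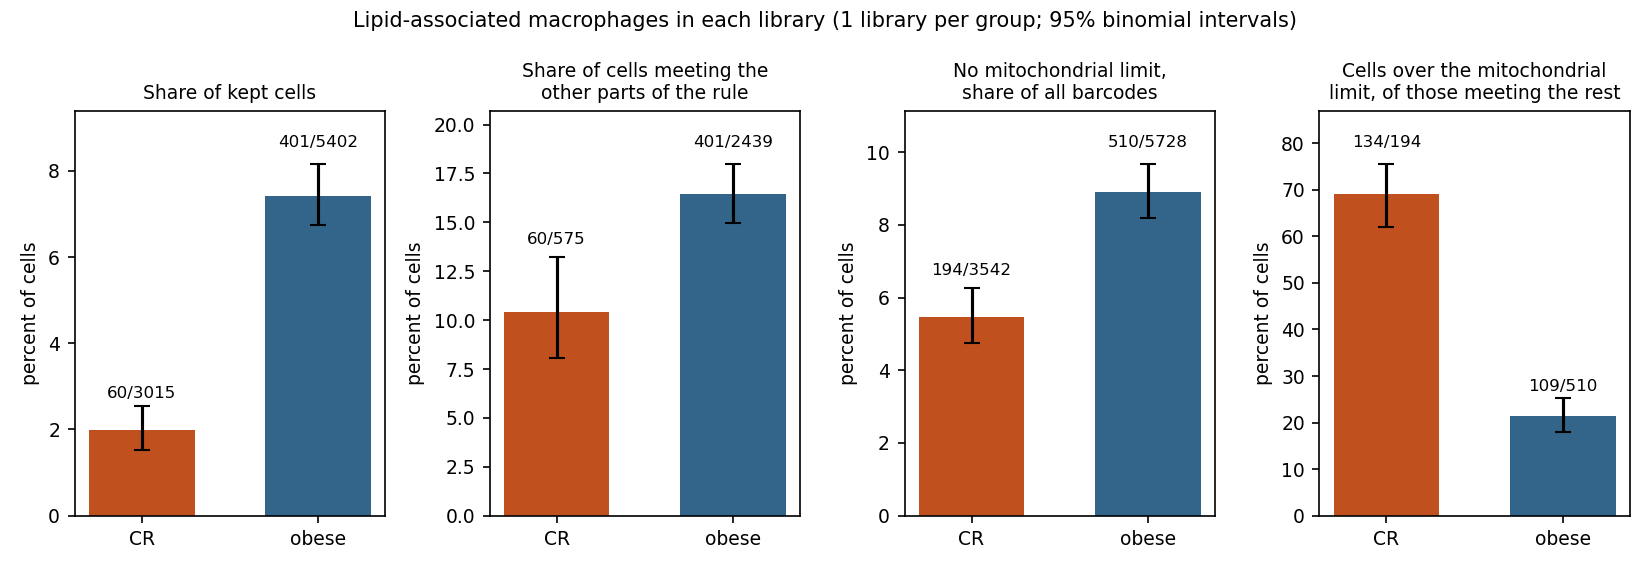
Share of lipid-associated MØs in the CR library (left bar of each panel) and the obese library (right bar), in percent of cells, with exact 95% binomial intervals that cover counting error only. The panels give the share of kept cells (1.99% and 7.42%), the share of Csf1r-positive cells meeting the other parts of the rule (10.4% and 16.4%), the share of all barcodes with no mitochondrial limit (5.48% and 8.90%), and the percentage of cells above the mitochondrial limit among those meeting the rest of the rule (69.1% and 21.4%).

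The cells above the mitochondrial limit were shallow and carried Gpnmb and Mmp12 at higher levels, and Atp6v0d2 at lower levels, than the lipid-associated MØs that were kept. Their median depth was 3572.5 UMIs in CR and 4197 UMIs in obese VAT, and mitochondrial genes held a median of 14.4% and 9.84% of their UMIs. Gpnmb stood at 4794 CPM in CR and 3169 CPM in obese VAT, Mmp12 at 3929 and 4255 CPM, Atp6v0d2 at 288 and 488 CPM, and Trem2 at 992 and 1051 CPM. H2-Aa, a chain of the MHCII molecule that presents antigen to T cells, stood at 1352 CPM in CR and 4228 CPM in obese VAT. They were left out of what follows, except where a value is given without the mitochondrial limit.

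Other parts of the rule also removed cells. Over the threshold of 0.08% lay 134 kept cells in CR and 537 in obese VAT. Of these, 67 and 71 held no Csf1r UMI, 5 and 50 were cycling, 1 and 15 carried resident MØ genes, and 1 and 0 were high in Fcgr4. The cells without Csf1r were shallower, with medians of 3032 UMIs in CR and 5501 UMIs in obese VAT, against 9723.5 and 11139 UMIs in lipid-associated MØs. Their Trem2 level was 476 CPM in CR and 1175 CPM in obese VAT. T cells, which should lack these genes, passed the threshold in 5 of 328 cells in CR (1.52%) and 2 of 465 in obese VAT (0.430%).

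The genes of the rule did not mark the cells evenly. Gpnmb was detected in 55 of 60 CR (91.7%) and 346 of 401 obese (86.3%) lipid-associated MØs, Mmp12 in 41 (68.3%) and 260 (64.8%), and Atp6v0d2 in 49 (81.7%) and 370 (92.3%). All 3 genes were seen in 53.3% of CR and 50.6% of obese cells. The 3 genes together gave between 2 and 331 UMIs per cell in CR (median 23) and between 3 and 1290 in obese VAT (median 18). Gpnmb stood at 1546 CPM in CR and 1561 CPM in obese lipid-associated MØs, Mmp12 at 1558 and 1096 CPM, and Atp6v0d2 at 544 and 589 CPM. A single cell held 17.3% of the Mmp12 UMIs in CR and 16.7% in obese VAT. Just inside the threshold, at 0.08 to 0.1% of UMIs, 9 CR and 65 obese cells had 1457 and 1311 CPM of Trem2. Just outside it, at 0.06 to 0.08%, 13 CR and 91 obese cells had 899 and 1120 CPM. Cd9 was also lower outside in both libraries, while Lpl and Fabp5 were not. Lpl stood at 2715 CPM inside and 2261 CPM outside in CR, but at 2529 and 2649 CPM in obese VAT. Fabp5 stood at 707 CPM inside and 809 CPM outside in CR, and at 771 and 582 CPM in obese VAT.

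In the GENCODE annotation of GRCm38, Gpnmb lies on chromosome 6 (49036546 to 49070929, plus strand), Mmp12 on chromosome 9 (7344381 to 7369499, plus), Atp6v0d2 on chromosome 4 (19876841 to 19922605, minus), Trem2 on chromosome 17 (48346401 to 48354147, plus) and Lpl on chromosome 8 (68880491 to 68907448, plus). The promoters of Gpnmb, Mmp12 and Trem2 are printed because the 3 genes were high in the same cells, which Gpnmb and Mmp12 chose, and hold the same short motif near a start. The first of 2 Mmp12 starts does not have it and is not printed. Each stretch runs from 120 bases before a RefSeq transcript start to 30 bases from it, on the plus strand of GRCm38.p6, at chr6:49036398-49036547 for Gpnmb, chr9:7347254-7347403 for the second Mmp12 start, and chr17:48346281-48346430 for Trem2. Capitals mark TGANTCA, the motif of the AP-1 transcription factors, searched on both strands.
Gpnmb: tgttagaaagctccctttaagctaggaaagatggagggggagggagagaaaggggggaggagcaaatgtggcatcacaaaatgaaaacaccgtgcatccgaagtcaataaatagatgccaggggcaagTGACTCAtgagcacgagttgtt
Mmp12: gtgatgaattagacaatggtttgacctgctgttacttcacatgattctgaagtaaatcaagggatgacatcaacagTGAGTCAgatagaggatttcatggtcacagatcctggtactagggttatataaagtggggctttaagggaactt
Trem2: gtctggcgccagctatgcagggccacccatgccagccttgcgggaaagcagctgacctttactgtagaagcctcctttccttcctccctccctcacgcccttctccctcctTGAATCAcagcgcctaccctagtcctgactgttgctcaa
The motif began 8 bases after the start of Gpnmb, 44 bases before the second start of Mmp12 and 9 bases before the start of Trem2. Over windows from 250 bases before to 50 bases after a start, it occurred in 7.81% of 32841 mouse promoters and in 6.03% of the 2769 promoters of genes measured here. TCATGTG, the M-box read by MITF and TFE factors, occurred once, 83 bases before the second Mmp12 start, and in 3.77% of all promoters. CACGTG, the E-box that TFEB reads in lysosomal promoters, occurred in none of these windows and in 7.15% of all promoters. It was in the promoters of 4 of 13 V-ATPase genes with a window and 10 of 40 lysosomal genes, against 13.2% of the genes measured here. TGANTCA was in those of 1 of 13 V-ATPase, 4 of 40 lysosomal and 3 of 17 lipid-associated genes, Trem2 among them, against 7.29%. The windows of Ctsl, Ctsk and Cd9 lacked it. Since the printed promoters were picked for holding TGANTCA, their matches are part of the choice. Atp6v0d2 and Lpl were not matched to a promoter. A match of letters is no evidence of binding.

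The name held against the markers that the rule did not use. Trem2 stood at 1527 CPM in CR and 1539 CPM in obese lipid-associated MØs, against 514 and 594 CPM in C1q MØs and 48.9 and 36.9 CPM in T cells. C1q MØs are the cells that met every other part of the rule, lay under the threshold and held at least 0.3% of UMIs from C1qa, C1qb and C1qc (222 cells in CR, 1389 in obese VAT). Lpl stood at 2821 CPM in CR and 3110.2 CPM in obese lipid-associated MØs, against 1214 and 1408 CPM in C1q MØs. Cd9, a tetraspanin of the cell surface, stood at 1269 and 999 CPM, against 339.6 and 335 CPM. At least 1 Trem2 UMI was seen in 93.3% of CR and 98.0% of obese lipid-associated MØs, in 71.2% and 76.5% of C1q MØs, and in 12.8% and 13.5% of T cells. T cells were shallower, with medians of 2634.5 and 3310 UMIs. With each cell thinned to 2500 UMIs (6 CR lipid-associated MØs, 12 C1q MØs and 128 T cells were too shallow), the Trem2 shares were 88.9% and 90.8% in lipid-associated MØs, 53.3% and 56.9% in C1q MØs, and 12% and 8.39% in T cells. Of 10 general MØ markers, Csf1r was required by the rule, and the others were detected in both libraries. The 10 summed to 33748 CPM in CR and 25394 CPM in obese VAT, against 1012 and 1001 CPM in T cells. In C1q MØs, which were chosen by C1qa, C1qb and C1qc among them, the sums were 32859 and 36931 CPM. Of 9 measured markers, 5 in CR and 8 in obese VAT lay below C1q MØs. Per cell, Trem2 had a median of 1451 CPM in CR and 1433 CPM in obese lipid-associated MØs, while Lpl had 1597 and 2834 CPM. Conventional dendritic cell genes summed to 43.2 and 11.7 CPM, and Flt3, Xcr1 and Clec9a among them were listed at 0 in CR. Ccr7, also among them, had 23 UMIs in CR, 22 of them in 1 cell described below, and 26 UMIs over 22 cells in obese VAT. Genes that mark monocytes summed to 80.4 CPM in CR and 204 CPM in obese lipid-associated MØs, against 772 and 508 CPM in C1q MØs.

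**Figure D2:**
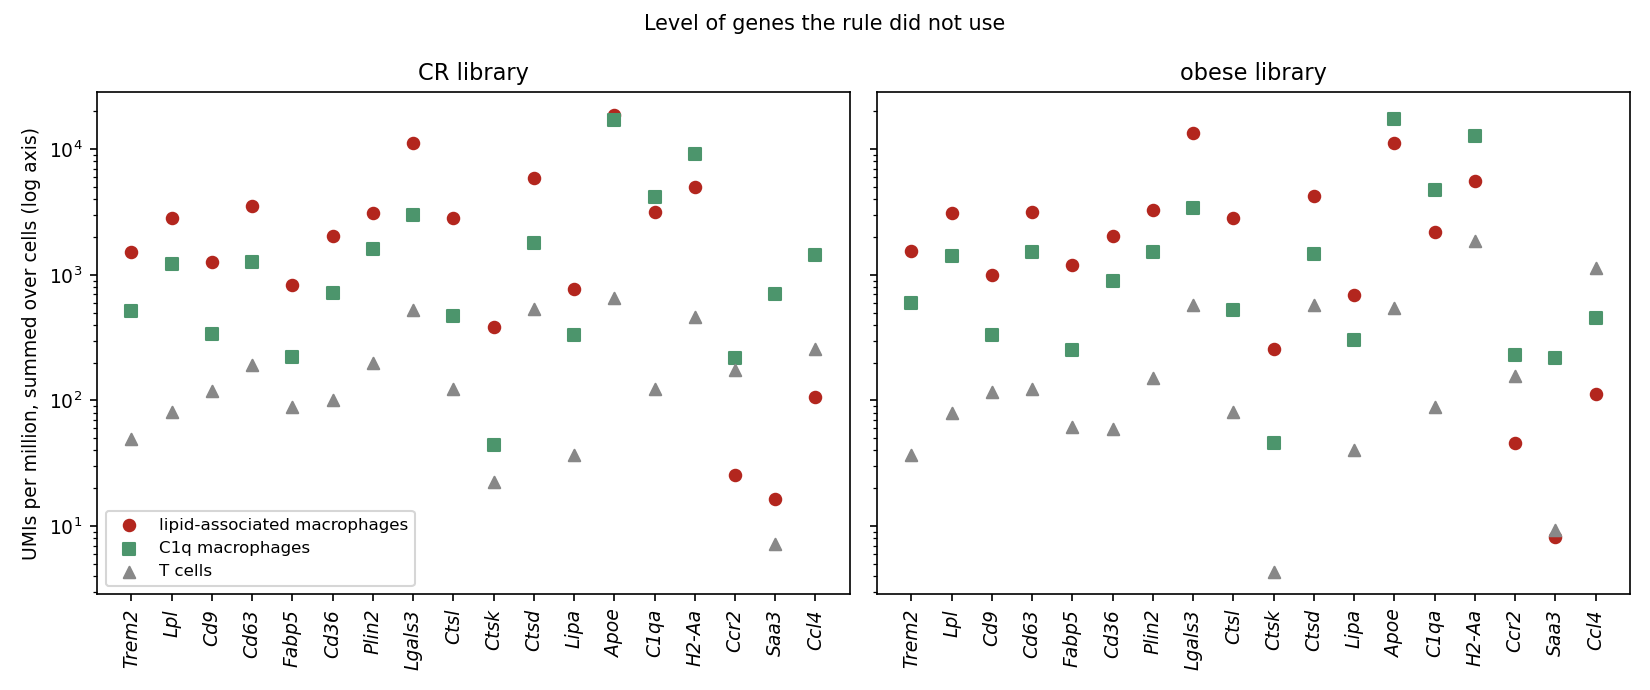
Level of 18 genes in lipid-associated MØs (red circles), C1q MØs (green squares) and T cells (grey triangles), in CPM summed over cells, on a log axis, with the CR library in the left panel and the obese library in the right panel. Trem2 stood at 1527 and 1539 CPM in lipid-associated MØs, above C1q MØs (514 and 594 CPM), while Ccr2 stood at 25.3 and 46.1 CPM, below C1q MØs (218 and 232 CPM). C1qa was one of the genes that chose the C1q MØs.

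To describe what set lipid-associated MØs apart from the other MØs of the same library, each gene was compared with C1q MØs as a log2 ratio of CPM, with 5 CPM added to each side. A gene counted as measured with at least 20 UMIs in the 2 sums and 50 CPM in 1 of them, and as called at 2-fold. In CR, 116 of 2698 measured genes (4.3%) were higher in lipid-associated MØs and 129 (4.78%) lower. In obese VAT, 86 of 2524 (3.41%) were higher and 108 (4.28%) lower. Of 2416 genes measured in both libraries, 62 were at least 2-fold higher in both and 63 lower in both. Both groups of cells were cut from the same MØs, so these values describe the cut.

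Among the genes highest in lipid-associated MØs that the rule did not use were proteases of the lysosome and genes of fatty acid handling. Ctsk, the collagen-cutting cathepsin of osteoclasts, stood at 381 CPM in CR and 256 CPM in obese lipid-associated MØs, against 44.0 and 46.0 CPM in C1q MØs (log2 ratios 2.98 and 2.36). Ctsl, a lysosomal cysteine protease, stood at 2833 and 2839 CPM, against 467 and 523 CPM (2.59 and 2.43). Both were uneven across CR cells, since 1 cell held 40.6% of the Ctsk UMIs and 1 cell 31.8% of the Ctsl UMIs, and without the top cell of each side the CR ratio of Ctsk was 2.60. Fabp5, a fatty acid-binding protein, stood at 828 CPM in CR and 1192 CPM in obese lipid-associated MØs, against 222 and 250.2 CPM in C1q MØs (1.88 and 2.23). Lgals3, a galectin released by phagocytes, stood at 11229 and 13397 CPM, against 2975 and 3418 CPM (1.91 and 1.97).

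Further high genes came from several functions. Cpe, a carboxypeptidase of secretory granules, was higher in lipid-associated than in C1q MØs by log2 ratios of 3.27 in CR and 2.12 in obese VAT. Il7r, the receptor chain for interleukin-7, stood at 134 CPM in CR and 139 CPM in obese lipid-associated MØs, against 19.9 and 24.5 CPM in C1q MØs, but at 355 and 232 CPM in T cells, which use it. Sox4, a transcription factor (2.49 and 1.99), Syngr1, a vesicle protein (2.44 and 2.15), Qpct, which cyclises N-terminal glutamine (2.43 and 1.80), Adam8, a membrane protease (2.25 and 1.94), Rnf128, a ubiquitin ligase (2.18 and 2.07), and Actn1, an actin crosslinker (2.07 and 1.88), were higher in CR and obese VAT by the log2 ratios given in brackets. Itgax, which encodes the integrin chain CD11c, stood at 103 and 74.95 CPM, against 27.1 and 16.2 CPM.

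Among the genes lowest in lipid-associated MØs relative to C1q MØs were some of monocytes and of inflammation. Saa3, an acute-phase protein, stood at 16.4 CPM in CR and 8.26 CPM in obese lipid-associated MØs, against 707 and 217 CPM in C1q MØs (log2 ratios −5.06 and −4.07). Of the Saa3 UMIs of CR C1q MØs, 88.8% lay in 1 cell, and without the top cell of each side the CR ratio was −2.20. Ccr2, the receptor that draws monocytes into tissue, stood at 25.3 and 46.1 CPM, against 218 and 232 CPM (−2.88 and −2.21). Of the 17 Ccr2 UMIs in CR, 58.8% lay in 1 cell, and without the top cell of each side the CR ratio was −3.80. F13a1, the coagulation factor XIII chain of monocytes and MØs, had ratios of −3.03 in CR and −2.68 in obese VAT, and Ccl4, a chemokine for T cells and monocytes, −3.69 and −1.97. Also low were Ltc4s, the leukotriene C4 synthase (−3.06 and −2.05), Plac8 (−2.79 and −2.22), Socs3, an inhibitor of cytokine signals (−2.53 and −2.06), Tmem176a (−2.30 and −2.48), Ly6e (−2.13 and −2.24) and the monocyte chemokine Ccl7 (−2.16 and −2.31). Plac8 rested on 9 UMIs in CR and 48 in obese VAT, and its direction turned in both libraries with cells thinned to 2500 UMIs.

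Gene lists were described by the number of measured members past 2-fold and by their median, beside a median over all measured genes of 0.01 in CR and 0.11 in obese VAT. Of all measured genes, 1381 of 2698 in CR and 1585 of 2524 in obese VAT lay above 0. In CR 4.3% of them were higher and 4.78% lower by 2-fold, and in obese VAT 3.41% and 4.28%. Of 23 genes known for lipid-associated MØs outside the rule, 15 were higher in CR and 17 in obese VAT, with medians of 1.21 and 1.16, and none was lower by 2-fold. They include the scavenger receptor gene Cd36 (2051 CPM in CR and 2050.0 CPM in obese lipid-associated MØs, against 717 and 892 CPM in C1q MØs), Cd63, a tetraspanin of late endosomes (1.48 and 1.06), and Lipa, the acid lipase that digests cholesteryl esters in lysosomes (1.20 and 1.19). Of the V-ATPase subunits other than Atp6v0d2, 15 of 18 could be measured, and all 15 lay above 0 in both libraries. Their medians were 0.62 in CR and 0.67 in obese VAT, and Atp6v1b2, a subunit of the catalytic head, was highest in CR at 1.07. The list of lysosomal hydrolases and membrane proteins had medians of 0.44 (6 of 32 higher by 2-fold) in CR and 0.33 (2 of 30) in obese VAT. Psap, the precursor of the saposins that help digest sphingolipids, stood at 6889 and 6351 CPM, against 3042 and 3349.9 CPM. Cathepsins and their partners had medians of 0.77 and 0.75, with Ctsc, which activates granule proteases, at least 2-fold lower in both libraries.

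Lipid genes lay mostly above the C1q MØs. The 6 measured genes of lipid droplets were all above 0, with medians of 0.88 in CR and 1.03 in obese VAT. Plin2, the coat protein of lipid droplets, stood at 3125 CPM in CR and 3291 CPM in obese lipid-associated MØs, against 1614 and 1509 CPM in C1q MØs. Soat1, which esterifies cholesterol, had log2 ratios of 0.90 and 1.06, and Nceh1, which hydrolyses cholesteryl esters, 1.12 and 1.00. Fatty acid uptake and binding genes had medians of 0.88 and 1.14, with Slc27a1, a fatty acid transporter, at 1.43 and 1.19. Of the sterol synthesis genes, Fdps (1.73 and 1.35) and Msmo1 (1.57 and 1.04) were higher, and the other members were not measured in both libraries. One further member, measured in CR, lay at −0.84. Apoe, an apolipoprotein of cholesterol efflux, differed in sign, at 0.14 in CR and −0.63 in obese VAT, and its CR ratio was −0.83 with the threshold at 0.2% and −0.19 without the mitochondrial limit.

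Antigen presentation and most inflammatory genes lay below the C1q MØs. Of all measured genes, 4.78% in CR and 4.28% in obese VAT were lower by 2-fold. All 6 measured MHCII presentation genes were below 0, with medians of −0.90 in CR (1 lower by 2-fold) and −1.16 in obese VAT (5 lower). H2-Aa stood at 5017 CPM in CR and 5602 CPM in obese lipid-associated MØs, against 9179.8 and 12717 CPM in C1q MØs. Cd74, the invariant chain of MHCII, stood at 14833 and 16378 CPM, against 26662 and 35147 CPM. Of the inflammatory cytokines and chemokines, 8 of 19 were lower by 2-fold in CR and 9 of 17 in obese VAT, with medians of −0.85 and −1.01. They include Il1b, the interleukin-1β gene (−3.74 and −1.93), and Ccl2, a monocyte chemokine (−1.25 and −1.39). Il1rn, which encodes the antagonist of the interleukin-1 receptor, stood above C1q MØs instead, at 115 CPM in CR and 135 CPM in obese lipid-associated MØs, against 60.2 and 42.4 CPM. Interferon response genes had medians of −0.52 and −0.64, and immediate early and heat shock genes, which respond to tissue handling, −0.72 and −0.87. Glycolysis genes differed between the libraries, with a median of 0.18 in CR (5 of 10 above 0) and 0.75 in obese VAT (11 of 11 above 0), and this difference was not tested.

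Resident MØs (56 cells in CR, 339 in obese VAT) and cycling MØs (304 in obese VAT) were the other MØs compared. Against resident MØs, 139 of 2867 genes (4.85%) were higher in lipid-associated MØs by 2-fold in CR and 205 (7.15%) lower, and 103 of 2593 (3.97%) and 155 (5.98%) in obese VAT. Of the 23 lipid-associated genes, 13 were among the higher in CR and 14 in obese VAT, and Spp1 was among the lower in CR (−1.09). Trem2 stood at 1527 CPM in CR and 1539 CPM in obese lipid-associated MØs, against 358 and 493 CPM in resident MØs. H2-Aa did not stand below resident MØs in CR (5017 against 5006 CPM), and did in obese VAT (5602 against 8249 CPM). Cd81, a tetraspanin, was lower than in resident MØs by log2 ratios of −1.59 in CR and −2.27 in obese VAT. Against cycling MØs of obese VAT, 71 of 2710 genes (2.62%) were higher and 191 (7.05%) lower, and Apoe stood at 11208 CPM against 4894 CPM.

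**Figure D3:**
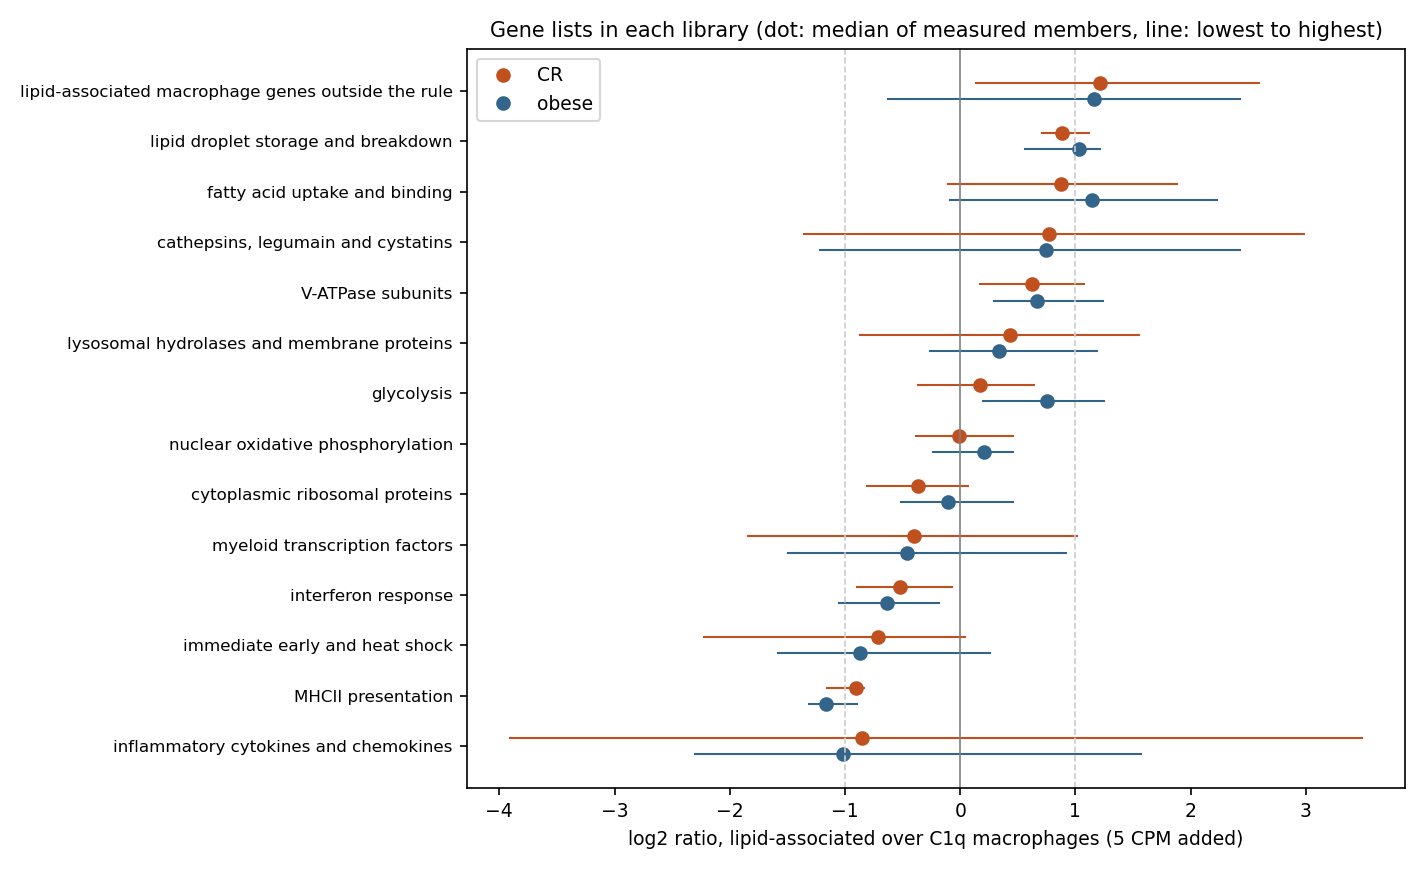
Median log2 ratio of lipid-associated over C1q MØs for 14 gene lists (points) with the lowest and highest measured member (lines), CR above obese in each pair. The 23 lipid-associated genes outside the rule had medians of 1.21 in CR and 1.16 in obese VAT, the V-ATPase subunits 0.62 and 0.67, and the MHCII presentation genes −0.90 and −1.16.

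Several of these genes were graded along the share of UMIs that the 3 genes of the rule took in a cell. From cells with no UMI of the 3 genes to cells with at least 0.5%, Lgals3 stood at 2166, 3061, 8454, 10663 and 17984 CPM in CR (252, 263, 34, 16 and 10 cells) and at 2551, 4142, 10628, 15434 and 19164 CPM in obese VAT (997, 1041, 243, 105 and 53 cells). Ctsk ran in the same order at 19.96, 79.8, 216, 340.0 and 796 CPM in CR and 13.5, 57.4, 91.6, 315 and 708 CPM in obese VAT. Trem2 instead rose mostly over the lower 3 bins. It stood at 383 CPM in the bin from over 0 to under 0.08% and 1369 CPM in the next bin in CR, and at 628 and 1461 CPM in obese VAT. The bin under 0.08% is wide, and cells in its upper part, at 0.06 to 0.08%, already had 899 CPM in CR and 1120 CPM in obese VAT. H2-Aa stood at 8509 CPM in CR and 11413 CPM in obese cells with no UMI of the 3 genes, and at 2591 and 2967 CPM in those with at least 0.5%. Ccr2 stood at 369 CPM in CR and 391 CPM in obese cells of the lowest bin, and at 44.4 and 63.5 CPM in the first bin above the threshold. Apoe was highest in CR in the bin of 0.08 to 0.2%, at 27922 CPM, and stood at 6625 CPM in the top bin. The upper CR bins hold 16 and 10 cells, and without them the order of Lgals3, Ctsk and Ccr2 in CR runs the same way over the lower 3. The lower 2 bins hold 515 cells in CR, 222 of them C1q MØs, and 2038 in obese VAT, 1389 of them C1q MØs. From the lowest to the top bin, median depth rose from 5655.5 to 15589 UMIs in CR and from 6326 to 14851 UMIs in obese VAT. The part of cell mix and depth in these orders was not tested.

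**Figure D4:**
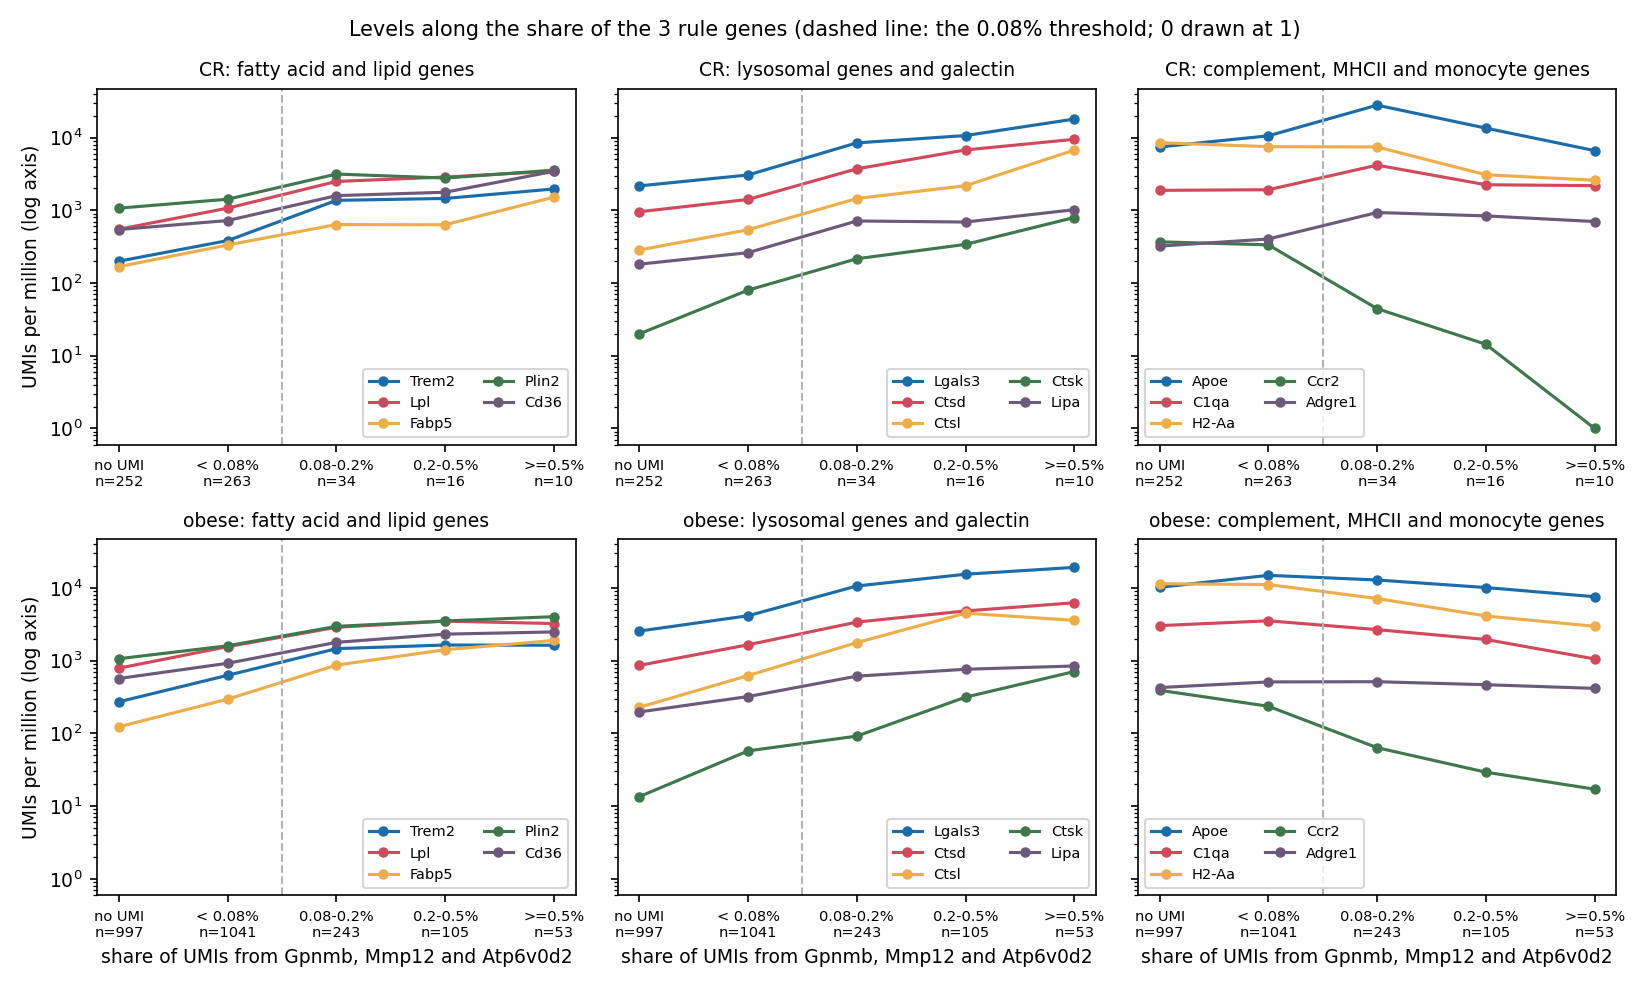
Levels in CPM (log axis, 0 drawn at 1) of lipid genes, lysosomal genes with galectin-3, and complement, MHCII and monocyte genes in cells meeting the other parts of the rule, by the share of UMIs from Gpnmb, Mmp12 and Atp6v0d2, with CR in the top row and obese VAT in the bottom row. Lgals3 runs between 2166 and 17984 CPM in CR and between 2551 and 19164 CPM in obese VAT, and H2-Aa in the opposite order. The CR bins hold 252, 263, 34, 16 and 10 cells.

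The members were not alike. In 29 CR and 202 obese cells Gpnmb gave the most UMIs of the 3 genes, in 17 and 100 Mmp12, and in 8 and 82 Atp6v0d2. Cells led by Mmp12 had less Apoe and Trem2 than cells led by Gpnmb in both libraries. Their Apoe stood at 9145 CPM in CR and 4227 CPM in obese VAT, against 19570 and 12566 CPM in Gpnmb-led cells. Their Trem2 stood at 1126 and 1075 CPM, against 1731 and 1606 CPM. The few cells in which just 1 gene of the rule was seen (7 in CR, 29 in obese VAT) had 772 and 777 CPM of Trem2 and 9418 and 9655 CPM of H2-Aa, against 1644 and 1609 CPM of Trem2 and 4970 and 4815 CPM of H2-Aa in cells with all 3. They were also shallower, with medians of 2207 UMIs in CR and 8439 UMIs in obese VAT, against 13823.5 and 12450 UMIs. The part of depth was not tested. One of the 7 CR cells held 14675 UMIs, with 106 of Mmp12 and none of Gpnmb or Atp6v0d2. It also held 54 UMIs of Ccl22 and 22 of Ccr7, genes of migratory dendritic cells, 8 of Lyz2 and none of C1qa. This cell met the rule while its markers went against the name. Without it, the other 6 CR cells with 1 gene of the rule had 1264 CPM of Trem2 and 2423 CPM of H2-Aa, so that H2-Aa lay below the CR cells with all 3 genes. The CR cells led by Mmp12 had 1208 CPM of Trem2 and 9891 CPM of Apoe without it.

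Within lipid-associated MØs, CR and obese cells differed in few genes. Of 2561 measured genes, 31 were at least 2-fold higher in CR (1.21%) and 9 at least 2-fold lower (0.351%), with a median of −0.01. C1q MØs gave 32 of 2514 (1.27%) and 5 (0.199%). Above 0 lay 1265 of the 2561 genes in lipid-associated MØs and 1541 of the 2514 in C1q MØs. Without the mitochondrial limit 89 genes were higher and 20 lower, and without cells holding UMIs of other lineages 82 and 39. The lipid-associated genes outside the rule had a median of −0.01, with 10 of 23 above 0, and Spp1 (1.01) was the single member past 2-fold, which it stayed in 8 of 16 alternatives. Trem2, Cd36, Cd68 and Plin2 each lay within 0.10 of 0 on the log2 scale. Ctsl lay there too with all cells, but at −0.43 without the top cell of each library and at −0.77 without cells holding UMIs of other lineages. The interval of Trem2 ran from −0.11 to 0.08. The V-ATPase subunits had a median of −0.01, 7 of 15 above 0.

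Gclm, a subunit of the enzyme that makes glutathione, stood at 212 CPM in CR and 51.8 CPM in obese lipid-associated MØs (log2 ratio 1.93), against 52.4 and 32.4 CPM in C1q MØs. Akr1b8, an aldo-keto reductase, stood at 453 and 123 CPM (1.84), against 60.8 and 53.4 CPM. Their counting intervals ran from 1.72 to 2.33 and from 1.68 to 2.08. Without cells holding 2 or more UMIs of other lineages, their ratios were 0.68 and 0.78. Of 14 measured genes of apoptotic cell clearance, Gas6 and Mfge8 were higher by 2-fold and none lower, with a median of 0.27. Of all measured genes, 1.21% were higher by 2-fold. Gas6, which bridges dying cells to the receptors Axl and Mertk, stood at 76.0 CPM in CR and 25.6 CPM in obese lipid-associated MØs (1.40), against 75.3 and 74.4 CPM in C1q MØs. Folr2, a folate receptor of tissue MØs, stood at 693 and 275 CPM (1.31), against 220.4 and 252 CPM. One CR cell held 28.8% of its UMIs, and the ratio was 0.93 without the top cell of each library and 0.97 without the mitochondrial limit. Mfge8, another bridge to dying cells, had a ratio of 1.22, with 42.9% of its CR UMIs in 1 cell, and 0.62 without the top cell of each library.

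The other genes highest in CR stood beside values that bear on them. Dcn and Sparc, matrix proteins of fibroblasts, had ratios of 2.94 and 2.21, and Dcn stood at 93.8 CPM in CR and 7.86 CPM in obese lipid-associated MØs. In T cells, which should lack it, Dcn stood at 292 and 283 CPM. AY036118, a transcript at the ribosomal DNA, had a ratio of 2.34, and stood at 634 CPM in CR and 115 CPM in obese T cells. Ccl22 (2.97) and AA467197 (2.63) rested on the cell with 22 Ccr7 UMIs described above, which held 94.7% and 97.1% of their CR UMIs. One more CR member held a Ccr7 UMI. Hspa1a, a heat shock protein, had a ratio of 1.63 in lipid-associated MØs and 1.23 in C1q MØs. Ccl7 had a ratio of 1.36, with 50% of its 62 CR UMIs in 1 cell.

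Spp1, the gene of osteopontin, a matrix protein and cytokine of lipid-laden MØs, stood at 719 CPM in CR and 355 CPM in obese lipid-associated MØs. Its ratio of 1.01 was 0.95 without the top cell and 0.23 with at least 2 Csf1r UMIs. In C1q MØs it stood at 417 and 68.5 CPM (2.52), so the larger ratio lay outside the lipid-associated MØs, and the difference was not tested. Abca1, the cholesterol exporter, stood at 74.5 and 34.1 CPM (1.03), and Apoe at 18770.4 and 11208 CPM (0.74), against 17069 and 17319.6 CPM in C1q MØs. The ratio of Abca1 was −0.048 with cells thinned to 2500 UMIs.

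Ear2, a ribonuclease of eosinophils and myeloid cells, stood at 44.7 CPM in CR and 185 CPM in obese lipid-associated MØs (−1.94), against 155 and 167 CPM in C1q MØs. Fn1, fibronectin, stood at 32.8 and 134 CPM (−1.88), against 346 and 155 CPM. Il10, the anti-inflammatory cytokine, stood at 22.3 and 60.04 CPM (−1.25), and Ccl5, a chemokine abundant in T cells (7329 and 13240.1 CPM there), at 26.8 and 83.2 CPM (−1.47). Without cells holding UMIs of other lineages the ratio of Ccl5 was −0.44. Of 16 measured inflammatory cytokines and chemokines, 8 lay above 0 and 8 below. The counting interval ran from −2.63 to −1.53 for Ear2 and from −2.72 to −1.42 for Fn1. Without the mitochondrial limit the ratio of Fn1 was −0.64, that of Il10 −0.11 and that of Mt2 −0.56. Mt2, a zinc-binding metallothionein, stood at 150.4 and 333 CPM (−1.12) and was also lower in C1q MØs (172 and 312 CPM). The other 7 of the 12 lowest (Hist1h1c, S100a4, Angptl4, Wdr89, Clec4b1, Ramp1 and Rras2) lay between −0.95 and −0.87 and did not reach 2-fold. The other 4 of the 9 genes past 2-fold were haemoglobin genes, which stand beside the erythroid sums given above. Of the genes named here, Ear2, Gas6, Dcn, Sparc and AY036118 stayed past 2-fold in all 16 alternatives.

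**Figure D5:**
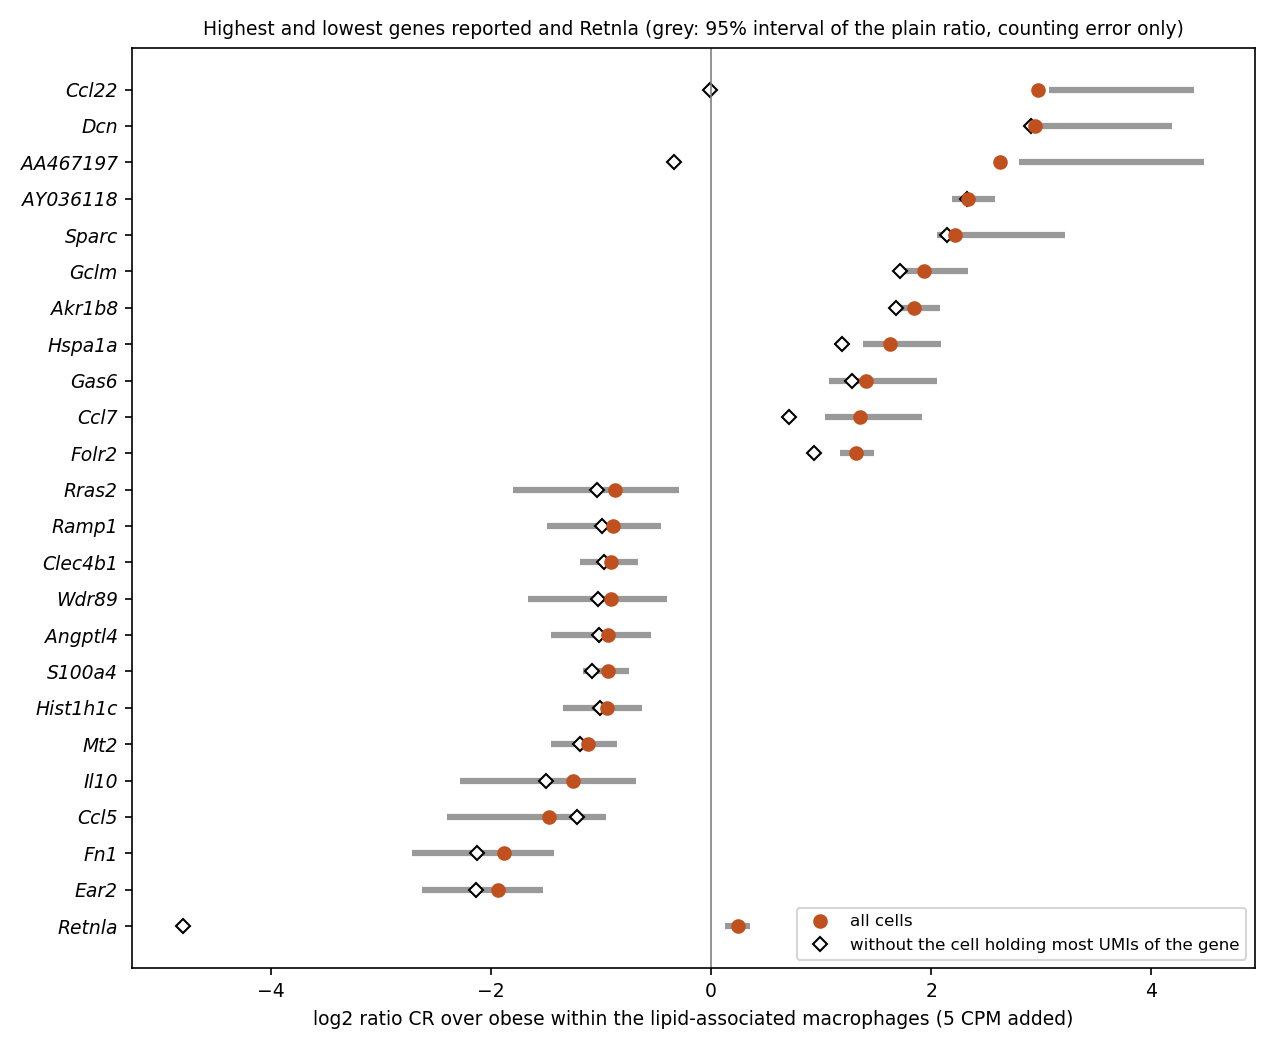
Log2 ratio of CR over obese lipid-associated MØs for the highest and lowest genes reported and Retnla, with 5 CPM added to each side (circles), the same without the cell that held most UMIs of the gene in each library (diamonds), and the 95% counting interval of the plain ratio (grey lines, which can lie off the circle because nothing was added). Ccl22 and AA467197 stand at 2.97 and 2.63 with all cells and at −0.011 and −0.34 without the top cell, and Retnla at 0.24 and −4.80.

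Among the lists, cytoplasmic ribosomal protein genes had a median of −0.34 in lipid-associated MØs, with 80 of 84 below 0, against a median of −0.09 in C1q MØs. Of all 2561 genes measured in lipid-associated MØs, 1265 lay above 0 and 1296 below. Nuclear genes of oxidative phosphorylation had a median of −0.15 in lipid-associated MØs, 0.06 in C1q MØs and −0.06 in T cells. All 14 measured leukocyte integrins and tetraspanins lay above 0 (median 0.26, none past 2-fold). Their median was 0.12 in C1q MØs (8 of 13 above 0) and 0.29 in T cells (9 of 13 above 0). All 6 MHCII presentation genes lay below 0 (median −0.16, against −0.40 in C1q MØs). In T cells, used for the free RNA background, all 7 measured MHCII genes were lower by 2-fold, with a median of −1.90. The part of free RNA in these values was not tested. Cholesterol efflux genes had a median of 0.45, with Npc1, the lysosomal cholesterol transporter, at 0.85. The direction of these medians was kept in every alternative in which it was computed for ribosomal, oxidative phosphorylation, integrin and MHCII genes.

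Retnla, a secreted protein of alternatively activated MØs, shows how 1 cell can carry a sum. It stood at 1107 CPM in CR and 935 CPM in obese lipid-associated MØs, a log2 ratio of 0.24, but 726 of the 743 UMIs in CR came from 1 cell. Without the top cell of each library the values were 26.1 and 858 CPM, a ratio of −4.80 (interval −5.82 to −4.36). In C1q MØs Retnla stood at 40.9 CPM in CR and 1385 CPM in obese VAT. At least 1 UMI was seen in 8 of 60 CR (13.3%, 5.94 to 24.6) and 211 of 401 obese (52.6%, 47.6 to 57.6) lipid-associated MØs. A UMI was seen in 2.13% of CR and 24.5% of obese T cells, at medians of 2634.5 and 3310 UMIs, against medians of 9723.5 and 11139 UMIs in lipid-associated MØs. The part of free RNA in the shares was not tested. With cells thinned to 2500 UMIs the shares were 3.70% and 23.4% in lipid-associated MØs and 2.00% and 15.9% in T cells.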

How the data were processed

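The deposited matrices hold UMI counts per gene and barcode, which the authors made with Cell Ranger against mm10, as filtered barcodes with no normalization. Here, with Python 3.11.15, numpy 2.4.6, scipy 1.17.1 and pandas 2.3.3, barcodes with at least 200 genes and at most 6% mitochondrial UMIs were kept and the rule was applied. Cell types were not clustered. T cells, used for the free RNA background, held at least 2 UMIs of Cd3d, Cd3e and Cd3g, no Csf1r and at most 2 C1q UMIs. No doublet caller was run, and cells with UMIs of other lineages were counted instead. Counts were summed per group of cells and compared as log2 ratios with 5 CPM added. Intervals are exact 95% binomial intervals for shares and exact conditional intervals for plain ratios, and cover counting error only. The text names the marker genes, the 12 highest and 12 lowest genes of CR over obese, the 15 highest and 10 lowest of lipid-associated over C1q MØs by the smaller of the libraries' ratios, and up to 4 members of each list by size with some further members. Ribosomal, mitochondrial, haemoglobin and immunoglobulin genes and unnamed gene models were left out of these ranks, and 1 gene within them is not reported here. The members and the lists were chosen with earlier results of these data known. Promoters came from RefSeq on GRCm38.p6 and gene positions from GENCODE on GRCm38. Alternatives changed the thresholds, depth, scaling, pseudocount, filter and cells, and their effect is given in the closing section. The ratio step was tested on simulated data.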

Additional observations from a re-analysis of the deposited data

Results flagged for a closer look

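Fn1, the fibronectin gene, went opposite ways in the 2 groups of MØs. In lipid-associated MØs it stood at 32.8 CPM in CR and 134 CPM in obese VAT, a log2 ratio of −1.88 on 22 and 666 UMIs. In C1q MØs it stood at 346 CPM in CR and 155 CPM in obese VAT, a ratio of 1.13. With 1 library per condition the difference between these ratios was not tested.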

How the results depend on the processing

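No paired analysis was possible because each condition had 1 library. Of 1668 gene ratios recomputed under alternatives, 1097 stayed within the counting interval of the reported ratio, 564 moved out of it with no reversal and 7 reversed, a reversal being a change of sign of a ratio past 2-fold. Another 17 ratios of 6 results under 2-fold changed sign, among them Retnla CR over obese in 7 of 16 alternatives (lowest −5.75) and Apoe over C1q MØs in CR in 4 of 17. Of 400 list medians 362 stayed within the middle spread of their members and 38 moved. The share of kept cells in CR (1.99%) and obese VAT (7.42%) was 2.75% and 10.3% with the threshold at 0.05%, 0.862% and 2.92% at 0.2%, 5.48% and 8.90% without a mitochondrial limit, and 4.31% and 10.7% without cells holding 2 or more UMIs of other lineages. In obese VAT it was 6.35% with at least 2 Csf1r UMIs and 6.08% with cells thinned to 2500 UMIs. Genes at least 2-fold higher in CR (31) numbered 48 at 0.05%, 70 at 0.2%, 89 without a mitochondrial limit, 154 thinned, 82 without cells of other-lineage UMIs, 20 with 20 CPM added, 174 without the filter on low genes and 19 without the top cell of each gene. Genes at least 2-fold lower in CR (9) numbered 26 at 0.2%, 20 without a mitochondrial limit, 116 thinned, 39 without cells of other-lineage UMIs, 98 without the filter, 14 by the mean of per-cell CPM and 16 without the top cell. Genes higher in lipid-associated than in C1q MØs numbered 54 thinned and 166 without the filter in obese VAT (86), and in CR (116) 181 without a mitochondrial limit, 183 without cells of other-lineage UMIs, 307 without the filter and 176 against all other cells meeting the rest of the rule. CR over obese past 2-fold reversed without the top cell for Ccl22 (−0.011) and AA467197 (−0.34), which left 3 and 1 UMIs in CR, and thinned for Abca1 (−0.048). Lipid-associated over C1q MØs reversed thinned for Plac8, at 2.99 in CR and 0.17 in obese VAT, and in CR for Retnla, at −4.95 at 0.2% and −0.91 thinned. The cause was not tested except where 1 cell was removed. Leaving out top cells, a higher UMI minimum per cell and the Ptprc denominator were chosen after seeing the data. The 60 CR cells limit the precision of every CR value.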
